A study of Mus musculus with 21 samples.

Results

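The comparison sets the mouse embryonic stem cell line D3 against the line A2, both in the ground state of pluripotency, and describes genes on the autosomes. It used the 3 D3 and 3 A2 ground-state libraries of a bulk RNA sequencing series of 21, picked by their labels alone. Of 39396 genes in the count table, 35364 lay on autosomes, 22692 of those had a count in these 6 libraries and 15866 passed the filter on low counts and were tested. The labels name no allele, transgene or drug treatment beyond the medium. D3 ground-state cells were grown with 10% serum, 1000 U/mL of leukaemia inhibitory factor (LIF) and an inhibitor pair against MEK and GSK3, and A2 ground-state cells in the same medium. D3 and A2 cells also exist in the series as naive cells, 4 days after the inhibitors were taken away, and as early primitive ectoderm-like (EPL) cells, grown for 4 days in LIF at 330 U/mL together with L-proline at 400 uM. Those libraries entered the interaction test and the shared estimate of the spread. The estimate of the spread also used the 3 A2 libraries labelled EpiSC (epiblast stem cells), which have no D3 counterpart. The labels give no strain, sex or passage for either line, so a difference belongs to this pair of lines as sampled.

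Mouse embryonic stem cells come from the inner cell mass of the blastocyst. LIF keeps them self-renewing through STAT3, the MEK inhibitor blocks the ERK signal that drives them towards the formative epiblast, and the GSK3 inhibitor stabilises beta-catenin. Lines kept in culture can gain or lose chromosomes or parts of them, and can differ in DNA methylation, imprinted genes and strain background.

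The D3 libraries held 19599380 to 22246738 counts and the A2 libraries 18824044 to 22286752, with 1.94% to 2.49% of counts from mitochondrial genes in D3 and 1.86% to 3.41% in A2. The first principal component carried 56.1% of the variance and placed the D3 libraries at 30.3 to 34.7 and the A2 libraries at -34.3 to -30.9, and no library stood with the other line. Replicates of a line correlated at 0.992 to 0.994 (Pearson, log2 CPM). No label tells whether the 3 replicates came from separate cultures. Each edgeR p-value therefore reflects only how far replicates spread within the 7 groups of the series, which may be technical. Levels are CPM, counts scaled by TMM library size, given per library or as mean ± SD with n = 3 libraries per line, and differences are log2 of D3 over A2 ± SE. A gene was called at an edgeR adjusted p below 0.05 and is named higher or lower in D3. The libraries hold pools of cells, so fewer cells of a type and less RNA per cell cannot be told apart.

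Of the autosomal genes tested, 3212 were called (20.2%), 1458 higher in D3 (9.19%) and 1754 lower (11.1%), and 638 of them differed by at least 2-fold (4.02%), 223 higher and 415 lower. The median difference over all autosomal genes was -0.003. The differences were not spread evenly over the genome. Genes of chromosome 1 and of a stretch of chromosome 14 were lower in D3, and genes of chromosome 8 were higher.

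On chromosome 1, 500 of 1025 genes tested were lower in D3 and 10 were higher, with a median of -0.40, a ratio of D3 to A2 of 0.760. The chromosome held 6.46% of the autosomal genes and 28.5% of the genes called lower. Chromosome 1 took 6.13%, 6.12% and 6.13% of autosomal counts in the D3 libraries, and 7.88%, 7.94% and 7.82% in the A2 libraries. The lines did not overlap, and the exact two-sided permutation p of 0.1 was the smallest that 3 against 3 can give. The exact permutation p was also 0.1 for chromosomes 2, 3, 5, 6, 7, 8, 10, 12, 14, 16, 17, 18 and 19. Non-overlap of shares was thus not particular to this chromosome. The shift ran along the chromosome: in each of its 31 bins of 5 Mb with at least 5 well-expressed protein-coding genes (mean of at least 5 CPM) the median was below 0, between -0.58 and -0.24. In naive cells the median of the chromosome was -0.47 and in EPL cells -0.33. Genes of chromosome 1 among those described below are Tfcp2l1, Prdm14, Btg2, Phlda3, Lamc1 and Mael.

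On chromosome 8, 370 of 864 genes were higher in D3 and 34 were lower, with a median of 0.30, a ratio of 1.23. It held 5.45% of the autosomal genes and 25.4% of the genes called higher. Its share of autosomal counts was 6.33%, 6.31% and 6.24% in D3 libraries, and 5.15%, 5.17% and 5.10% in A2 libraries (exact permutation p = 0.1). The median was 0.42 in naive and 0.37 in EPL cells. Tubb3, a neuronal tubulin, averaged 108 ± 7.5 CPM in D3 and 42.1 ± 0.44 in A2 (1.36 ± 0.09, edgeR adjusted p = 1.95e-10).

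A piece of chromosome 8 did the reverse. From Wrn, a DNA helicase of genome maintenance, to the cadherin Fat1 (GRCm38 chromosome 8, 33234384 to 45052257, ends chosen after the bins were seen), 14 of 30 well-expressed protein-coding genes were lower in D3 and 1 was higher, with a median of -0.26. Over the other 525 such genes of the chromosome the median was 0.33, with 337 higher and 4 lower. The end genes Wrn and Fat1 were themselves not called (0.05 and 0.04). The medians of the D3 libraries, relative to the A2 mean, were -0.24, -0.25 and -0.27 inside the piece, and 0.33, 0.32 and 0.32 in the rest. The piece holds Tex15, a testis-expressed gene of meiosis and transposon silencing (-0.78 ± 0.15), Mtus1 (-0.76 ± 0.11), the acid ceramidase Asah1 (-0.44 ± 0.06) and glutathione reductase Gsr (-0.33 ± 0.07), all examples chosen after their values were seen. Zfp42, a marker of naive pluripotency known as Rex1, lies in it too and was not called (-0.23 ± 0.09, edgeR adjusted p = 0.0747). Inside the piece the median was -0.13 in naive and -0.07 in EPL cells.

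**Figure D1:**
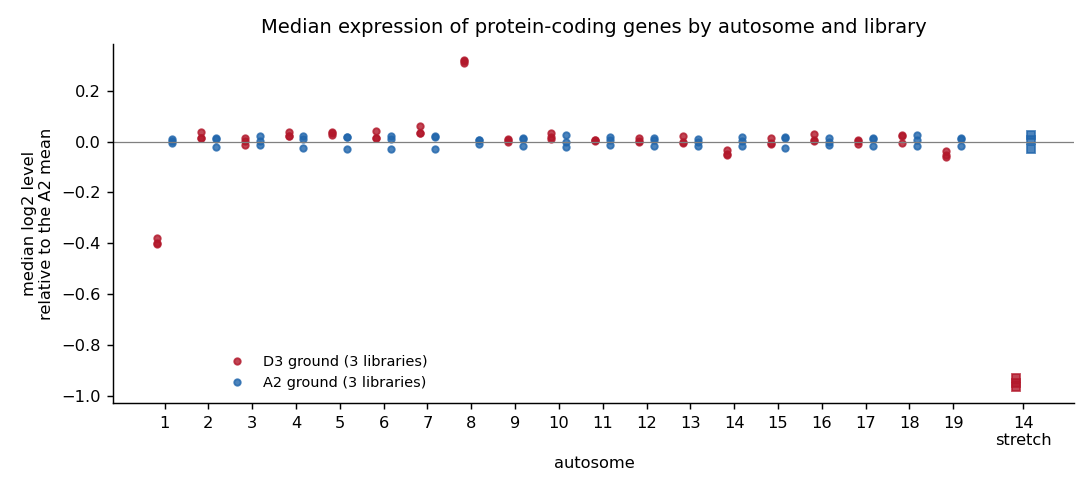
Median log2 level of well-expressed protein-coding genes on each autosome (x axis) in each ground-state library, relative to the mean of the A2 libraries (y axis, log2). D3 libraries are left of A2 libraries, and squares give the stretch of chromosome 14 from Ephx2 to Spry2. The D3 libraries lie near -0.40 on chromosome 1, near 0.32 on chromosome 8 and between -0.96 and -0.93 in the chromosome 14 stretch.

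The regional difference with the median furthest from 0 was on chromosome 14. Over 39.8 Mb from Ephx2 to Spry2 (66084374 to 105896819, ends chosen after the values were seen), 95 of 129 genes tested were lower in D3 and 34 were not called, with a median of -0.97. All 79 well-expressed protein-coding genes of the stretch had a difference below 0, and 75 of them were called. Their median was -0.96, a ratio of 0.515, and the middle 50% of them lay between -1.11 and -0.78. The stretch took 0.585%, 0.583% and 0.578% of autosomal counts in the D3 libraries, and 1.10%, 1.13% and 1.12% in the A2 libraries. The lines did not overlap and the exact permutation p was 0.1, as for the whole autosomes listed above. In naive cells the median of the 79 genes was -0.91 and in EPL cells -0.88. Over the remaining 267 well-expressed protein-coding genes of chromosome 14 the median was 0.04, with 23 lower and 29 higher. Beyond Spry2, towards the end of the chromosome, 6 of 22 such genes were lower and 7 higher, with a median of 0.14. The lower ones include the splicing regulator gene Mbnl2 (-1.27 ± 0.15) and Sox21 (-0.62 ± 0.14). Whether the lines differ in the copies of these chromosomes was not measured, since RNA counts do not show it and no DNA data were used here.

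The stretch carries genes of varied function, here as examples chosen after their values were seen. Ephx2, a soluble epoxide hydrolase, had 69.9, 61.8 and 71.8 CPM in D3 libraries, against 134, 120 and 141 CPM in A2 libraries. Rb1, the retinoblastoma tumour suppressor that holds back cell cycle entry, had 8.11, 10.5 and 7.72 CPM in D3, against 23.7, 28.4 and 24.1 CPM in A2 (-1.53 ± 0.15, edgeR adjusted p = 1.47e-07). Tpt1, the abundant translationally controlled tumour protein, averaged 1432 ± 67 CPM in D3 and 3193 ± 103 in A2 (-1.16 ± 0.10). Every D3 library was below every A2 library for these 3 genes, and over all autosomal genes 6480 had lines that did not overlap in one direction or the other (40.8%). Tsc22d1 differed by -1.21 ± 0.06, the membrane protein gene Itm2b by -1.24 ± 0.09, the kinase gene Ptk2b by -1.59 ± 0.16, and Spry2, a feedback inhibitor of receptor tyrosine kinases at the far end, by -0.50 ± 0.06. The 4 well-expressed protein-coding genes not called were Nefm (-0.37), Rpl36a-ps1 (-0.31), Enox1 (-0.28, called without A2 replicate 2, with an edgeR adjusted p of 0.0332) and Commd6 (-0.15). Rpl36a-ps1 is named as a pseudogene but typed as protein-coding in GENCODE M21, so its counts may include reads of a gene elsewhere.

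The 4 well-expressed pseudogenes within the stretch, Rps2-ps6, Gm10132, Rps3a2 and Gm10110, had differences from -0.07 to 0.17 with edgeR adjusted p between 0.174 and 0.914. Copies of this kind share sequence with genes elsewhere, so their counts may include reads of those genes. Before the near end, Ccdc25 had 62.5 ± 2.0 CPM in D3 and 65.9 ± 2.9 in A2 (-0.08), and Clu, between it and Ephx2, 5.72 ± 0.56 and 8.94 ± 0.98 CPM (-0.64, edgeR adjusted p = 0.00409). Beyond the far end, the host gene of the miR-17 family cluster, Mir17hg, was not called (-0.12).

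**Figure D2:**
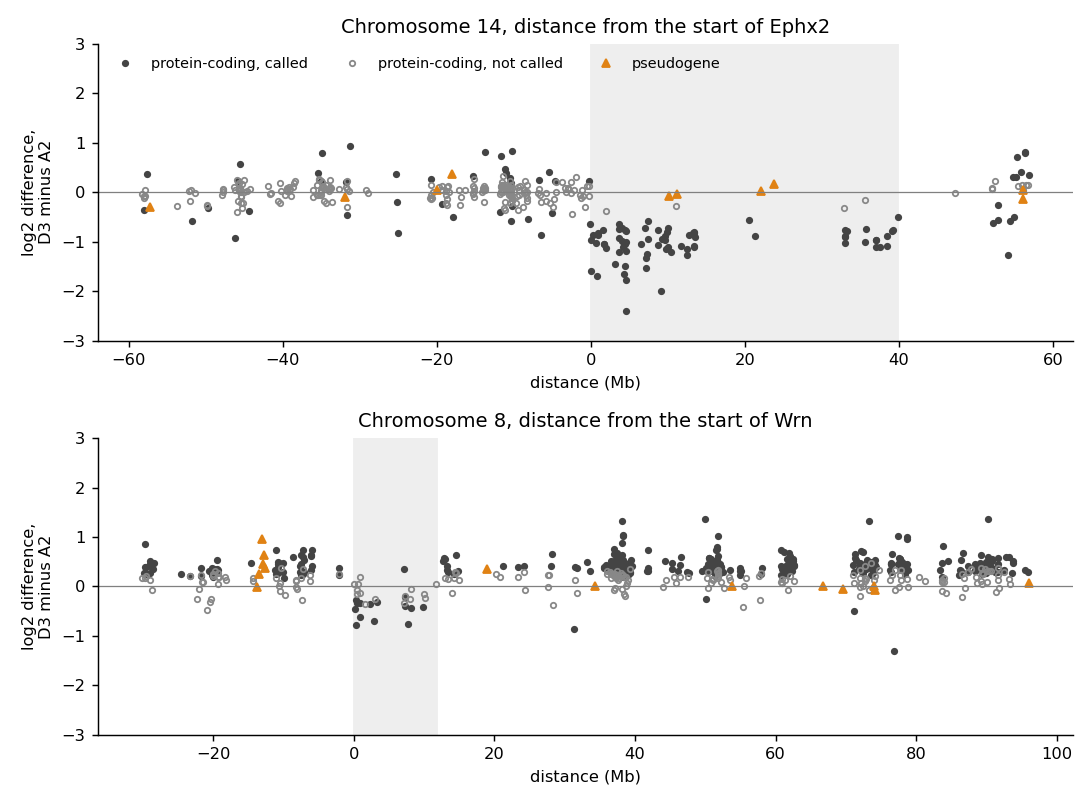
Log2 difference of D3 over A2 (y axis) for genes averaging 5 CPM or more, against distance in Mb from the start of Ephx2 on chromosome 14 and of Wrn on chromosome 8 (x axes). Filled dots are called, open dots not called, triangles pseudogenes, and the shaded spans are the 39.8 Mb from Ephx2 to Spry2 and the 11.8 Mb from Wrn to Fat1. The dots of the chromosome 14 span centre on -0.96 and those outside it near 0, while the chromosome 8 span centres on -0.26 between genes that centre on 0.33.

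Outside chromosomes 1, 8 and 14, 2135 of 13426 genes were called (15.9%), 1040 higher (7.75%) and 1095 lower (8.16%), and the medians of the other 16 autosomes lay between -0.04 and 0.04. The lists of genes below are given with their members on all autosomes, and then without these 3 chromosomes where that changes the picture. Over all autosomal genes, 9.19% were called higher and 11.1% lower, and no list was tested as a set. Single bins of 5 Mb on these autosomes had medians further from 0. Examples picked after the values were seen are 25 to 30 Mb of chromosome 19 and 80 to 85 Mb of chromosome 3. The first had a median of -0.35, with 15 of 15 well-expressed protein-coding genes below 0, and the second -0.40, with 6 of 9 below 0. A short region of chromosome 7, picked in the same way, also stood out. From 45 to 50 Mb, 25 of 49 well-expressed protein-coding genes were called and 12 were below 0, with a median of 0.23. The running median of 15 such genes was at least 0.5 from Ldha to E2f8. Genes described below that lie between 45 and 50 Mb include Dkkl1, Tead2, Cd37 and Ftl1, a list that is not complete.

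The core of the pluripotency network was close in both lines. Pou5f1, Sox2 and Nanog, its central transcription factors, averaged 1100 ± 55, 403 ± 3.6 and 893 ± 46 CPM in D3 and 1142 ± 46, 432 ± 20 and 929 ± 20 CPM in A2. Their differences of -0.05 ± 0.10, -0.10 ± 0.07 and -0.06 ± 0.08 were not called, nor were those of Esrrb (-0.14 ± 0.11) and Tbx3 (0.04 ± 0.07), naive factors downstream of GSK3 and LIF. Of 14 general pluripotency factors 1 was called, the RNA-binding protein gene Lin28a, which was higher in D3 (0.42 ± 0.08), and a further member was called without A2 replicate 3. The markers of mouse embryonic stem cells were thus abundant in all 6 libraries.

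Naive factors differed in both directions, with 4 higher and 6 lower of 19 and a median of -0.06. Tfcp2l1, a factor that acts downstream of LIF and STAT3, had 1416, 1436 and 1342 CPM in D3, against 2326, 2162 and 2309 CPM in A2 (-0.70 ± 0.13, edgeR adjusted p = 0.000431). Klf5, a Kruppel-like factor that maintains self-renewal, averaged 109 ± 5.8 CPM in D3 and 187 ± 8.1 in A2 (-0.79 ± 0.10). Tfcp2l1 lies on chromosome 1 and Klf5 in the chromosome 14 stretch, and neither line's libraries overlapped for them. Prdm14, a repressor of the epiblast programme also on chromosome 1, was lower (-0.32 ± 0.10), as was Klf4 (-0.29 ± 0.10). Both calls were fragile: leaving out 1 library in turn gave adjusted p up to 0.102 for Prdm14, whose call was lost without D3 replicate 1, D3 replicate 2 or A2 replicate 1, and up to 0.156 for Klf4, whose call held in 1 of those 6 fits, the one without A2 replicate 2. Over all 19, the count of higher genes became 2 without D3 replicate 1, D3 replicate 3, A2 replicate 2 or A2 replicate 3, and that of lower genes 3 without D3 replicate 1, D3 replicate 2 or A2 replicate 1. Away from chromosomes 1, 8 and 14 the list had 3 higher and 2 lower of 11.

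Dppa3, also called Stella, a maternal protein that protects the early embryo's DNA from changes of methylation, had the largest difference of this list. It had 18.9, 26.8 and 18.8 CPM in D3 libraries, against 4.97, 3.92 and 4.19 CPM in A2 libraries (2.30 ± 0.17, edgeR adjusted p = 1.88e-09). All D3 libraries were well above all A2 libraries. In naive and EPL cells the line difference was 0.38 and 0.54.

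Genes of the formative epiblast, the state that follows the naive one, were higher in D3 in 6 of 15 cases and lower in 2, with a median of 0.57. Otx2, a homeobox factor of that state, had 7.85, 6.32 and 6.84 CPM in D3, against 1.09, 1.66 and 1.69 CPM in A2 (2.25 ± 0.17, edgeR adjusted p = 2.28e-09). Sall2 (0.82 ± 0.13), Zic2 (0.79 ± 0.12) and the DNA methyltransferase genes Dnmt3a (0.76 ± 0.08), Dnmt3l (0.57 ± 0.09) and Dnmt3b (0.51 ± 0.08) were higher as well, while Etv4, an ERK-induced factor (-0.77 ± 0.08), and Grhl2 (-0.71) were lower. Otx2, Sall2 and Zic2 are on chromosome 14 outside the stretch described above. Fgf5, the classical formative marker, had 1 count over the D3 libraries and 6 over the A2 libraries and was not called, and neither was Pou3f1 (0.92 ± 0.37, edgeR adjusted p = 0.0828, or 0.0133 without D3 replicate 2). Without chromosomes 1, 8 and 14 the list had 3 higher and 2 lower of 12, and its median was 0.24. The genes this left out were Otx2, Sall2 and Zic2, none of which lies in the stretch.

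In the list of DNA methylation and demethylation genes, 4 of 15 were higher and 1 lower. Dnmt3a, which sets new methylation, averaged 32.4 ± 1.5 CPM in D3 and 19.11 ± 1.7 in A2, its partner Dnmt3b 236 ± 10 and 165 ± 8.5 CPM, and their cofactor Dnmt3l 79.9 ± 7.1 and 53.9 ± 7.0 CPM. Uhrf1, which guides maintenance methylation, was slightly higher (0.25), a call lost without D3 replicate 1, D3 replicate 3 or A2 replicate 2 (adjusted p up to 0.140), and the methyl-binding protein gene Mbd2 was lower (-0.71 ± 0.11). Dnmt1, the maintenance enzyme, and the demethylating oxygenase gene Tet1 were not called (-0.01 and 0.01).

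ERK-responsive genes were lower in 5 of 22 cases and higher in 2 (Junb and Ier2, on chromosome 8), with a median of -0.05. The immediate early genes Fos (-1.29 ± 0.30) and Jun (-0.86 ± 0.20), the ETS factor Etv4 and the feedback inhibitors Spred1 (-0.61 ± 0.09) and Spry2 were the lower ones. Egr1, Dusp6 and Spry4, which respond to the same signal, were not called (0.23, -0.08 and 0.06). Junb and Ier2 had small differences (0.28 and 0.33): 1 of the pair was called without D3 replicate 1, and neither without D3 replicate 3 or A2 replicate 2. Among 20 genes of the LIF and STAT3 response, 6 were lower and 3 higher, and without chromosomes 1, 8 and 14, 3 were lower and 2 higher of 16. Stat3 itself was lower (-0.30), and Socs1, a feedback inhibitor of cytokine signalling, was higher (1.08 ± 0.22).

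Genes of the p53 pathway, which halts the cell cycle or starts apoptosis after damage, were lower in D3 or not called. Of 23 genes of the p53 pathway and cell cycle inhibitors, 12 were lower in D3 and the other 11 were not called, with a median of -0.39. The p53 gene Trp53 itself had 514, 470 and 510 CPM in D3, against 517, 481 and 559 CPM in A2, ranges that overlapped, and was not called (-0.06 ± 0.07, edgeR adjusted p = 0.616). Perp, a p53 target of the cell membrane linked to apoptosis, had 14.3, 15.6 and 12.3 CPM in D3, against 46.1, 59.9 and 48.4 CPM in A2 (-1.87 ± 0.16, edgeR adjusted p = 1.2e-08). Btg2, an antiproliferative target gene on chromosome 1, averaged 59.3 ± 4.3 CPM in D3 and 144 ± 6.0 in A2 (-1.27 ± 0.10). Neither line's libraries overlapped for Perp or Btg2. Phlda3, an inhibitor of Akt also on chromosome 1, differed by -0.71 ± 0.09, the kinase gene Plk2 by -0.51 ± 0.12, the stress-induced sestrin gene Sesn2 by -0.50, the cyclin G gene Ccng1 by -0.48, Trp53inp1 by -0.48, the p53 ubiquitin ligase gene Mdm2 by -0.42, the apoptosis gene Bbc3 (Puma) by -0.42, Zmat3 by -0.40, Gadd45a by -0.39 and the exonuclease gene Aen by -0.29. Cdkn1a, the p21 cell cycle inhibitor and best-known target, was not called (-0.30 ± 0.12, edgeR adjusted p = 0.0827). Without chromosomes 1, 8 and 14, 10 of 21 were lower and the median was -0.30. Over all 23, leaving out 1 library in turn left 10 to 12 lower. The call of Mdm2 was lost without A2 replicate 2 (adjusted p = 0.0561), that of Trp53inp1 without D3 replicate 3 (0.0572), that of Aen without A2 replicate 1 (0.0502) and that of Zmat3 without D3 replicate 1, D3 replicate 3, A2 replicate 1 or A2 replicate 3 (up to 0.0638).

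Imprinted genes, expressed from the copy of a single parent, were counted by parental class. Of 27 paternally expressed genes 7 were higher and 3 lower in D3, with a median of 0.26. Of 22 maternally expressed genes 5 were lower and 17 were not called, with a median of -0.23. Plagl1, a paternally expressed zinc finger gene and a regulator of other imprinted genes, had 116, 112 and 109 CPM in D3, against 26.2, 31.6 and 21.7 CPM in A2 (2.09 ± 0.17, edgeR adjusted p = 9.93e-09). Its difference was 2.17 in naive and 2.36 in EPL cells. The polycomb-related gene Sfmbt2 was higher (1.19 ± 0.20), as were Peg12 (0.98 ± 0.20), Mcts2 (0.69 ± 0.11), Ndn (0.68 ± 0.11), Mest (0.64 ± 0.11) and Impact (0.53 ± 0.09). Sgce (-1.11 ± 0.21) and Peg10 (-0.84 ± 0.19), neighbours on chromosome 6, were lower, as was the amino acid transporter gene Slc38a4 (-0.37 ± 0.09). Among maternally expressed genes the growth inhibitor adaptor Grb10 averaged 51.6 ± 2.5 CPM in D3 and 86.4 ± 6.3 in A2 (-0.74 ± 0.11), the trophoblast factor Ascl2 1.49 ± 0.47 and 3.26 ± 0.11 CPM (-1.13 ± 0.23), and Slc22a18 1.01 ± 0.032 and 2.03 ± 0.40 CPM (-0.997 ± 0.22). Meg3 and Rian, maternal RNAs of the Dlk1 locus often silenced in stem cell lines, averaged 99.3 ± 22 and 232 ± 8.4 CPM in D3 and 130 ± 45 and 256 ± 40 CPM in A2, and were not called. Meg3 was called without A2 replicate 3, with an edgeR adjusted p of 0.0428.

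**Figure D3:**
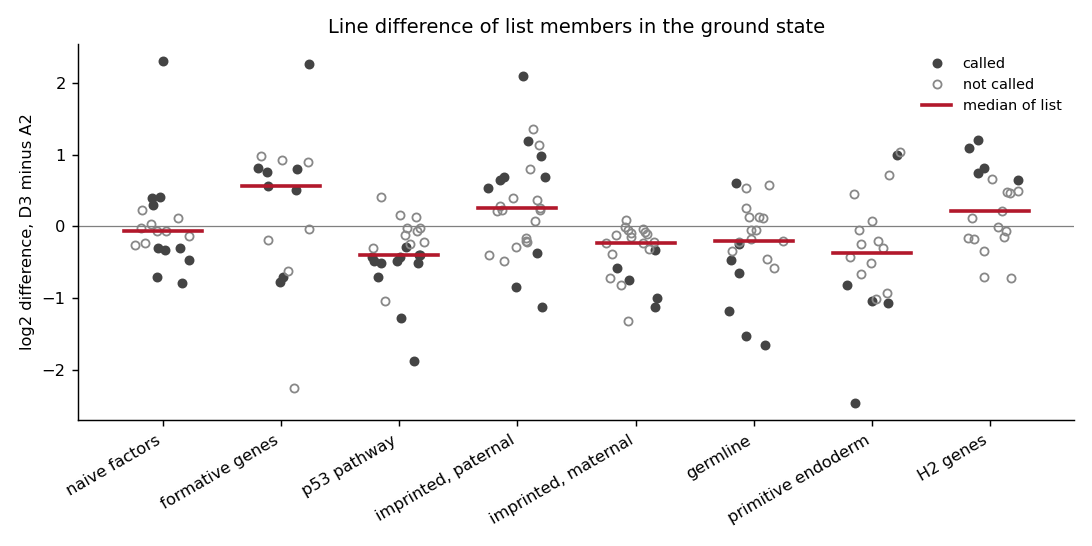
Log2 difference of D3 over A2 (y axis) of every tested member of 8 gene lists (x axis). Filled dots are called, open dots are not, and the line is the median of the list. The p53 pathway has its median at -0.39 with no filled dot above 0, and the imprinted classes have medians of 0.26 and -0.23.

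Germline genes, which stem cells express at low levels, were lower in 6 of 21 cases and higher in 1, with a median of -0.20. Piwil2, Mael and Tdrd9 act in the silencing of transposons by small RNAs. Piwil2, a Piwi protein in the chromosome 14 stretch, averaged 6.205 ± 1.2 CPM in D3 and 19.6 ± 1.4 in A2 (-1.65 ± 0.15), and Mael on chromosome 1 averaged 1.84 ± 0.27 and 4.15 ± 0.17 CPM (-1.17 ± 0.17). Tex19.1 (-0.47) was lower too, as was Tdrd9 (-1.52), whose call was lost in 5 of 6 cases when 1 library was left out, all but D3 replicate 3 (adjusted p up to 0.156), and Dazl, an RNA-binding protein of germ cells, was higher (0.60 ± 0.13). The list leaves out Tdrd12, described below. Without chromosomes 1, 8 and 14 it had 4 lower and 1 higher of 18.

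Markers of other cell types were summed in each library. Primitive endoderm markers summed to 1304 to 1420 CPM in D3 and 1962 to 2133 CPM in A2, most of it from the laminin gene Lamc1, which embryonic stem cells express and which averaged 827 ± 59 CPM in D3 and 1452 ± 86 in A2 (-0.81 ± 0.15). Of these 18 markers 4 were lower and 1 higher, and 8 had a mean under 1 CPM. Lamb1 (-1.04 ± 0.16) and the activin inhibitor gene Fst (-1.06 ± 0.16) were lower and the endodermal receptor gene Hnf4a was higher (0.998 ± 0.21). Fibroblast and feeder markers summed to 28.0 to 32.7 CPM in D3 and 30.9 to 34.9 CPM in A2, with 8 of 16 under a mean of 1 CPM. Trophoblast markers summed to 111 to 113 CPM in D3 and 95.9 to 103 CPM in A2, with Tfap2a higher (1.02 ± 0.14) and 2 members lower. Neural markers summed to 186 to 211 CPM in D3 and 133 to 138 CPM in A2, but to 83.5 to 94.7 CPM in D3 and 90.5 to 96.1 CPM in A2 without Tubb3. Of 9 tested, with a median of -0.38, Tubb3 and the progenitor filament gene Nes (1.05 ± 0.18) were higher. The neural transcription factor genes Sox21 and Neurod1 (-0.83 ± 0.23) were lower, and the call of Neurod1 was lost without D3 replicate 2, D3 replicate 3 or A2 replicate 3 (adjusted p up to 0.0886). The part of other cell types in the results was not tested. The genes of the state that resembles the 2-cell embryo, such as Zscan4 and Tcstv, summed to 329 to 353 CPM in D3 and 315 to 330 CPM in A2. Of its 15 genes tested, edgeR called 0, with 0 at an unadjusted p under 0.05, and DESeq2 called 0.

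Further lists are given by their counts, to be read beside the 9.19% of all autosomal genes called higher and 11.1% called lower. Among 33 interferon response genes 6 were lower and 2 higher, with the nucleic acid sensor gene Zbp1 lower (-1.82 ± 0.31) and the synthetase gene Oas1a higher (0.71 ± 0.10). Among 19 major histocompatibility complex and related H2 genes 5 were higher and 14 were not called. H2-K1, a classical class I antigen, averaged 7.53 ± 1.2 CPM in D3 and 4.24 ± 0.72 in A2 (0.82 ± 0.17), and H2-DMb1 of class II antigen loading 4.30 ± 1.4 and 2.01 ± 0.094 CPM (1.09 ± 0.26). These H2 genes resemble each other, so the assignment of their reads is uncertain. Of 23 genes of the betaine, methionine and one-carbon pathways, 8 were higher and 3 lower, led by Gldc of the glycine cleavage system, which averaged 134 ± 5.2 CPM in D3 and 67.6 ± 2.5 in A2 (0.99 ± 0.09, edgeR adjusted p = 5.73e-08). These counts rested on single libraries: the higher count was 3, 5, 5 and 2 without D3 replicate 1, D3 replicate 3, A2 replicate 1 and A2 replicate 2, and the lower count was 0, 0, 1, 1 and 0 without D3 replicates 1, 2 and 3 and A2 replicates 1 and 3. Among 22 glutathione S-transferases 3 were lower, near the 11.1% of all autosomal genes called lower, with Gsto1 at 29.1 ± 3.2 CPM in D3 and 73.5 ± 1.1 in A2 (-1.33 ± 0.17) beside its neighbour Gsto2, with 2 counts over the D3 and 17 over the A2 libraries, a call lost without D3 replicate 1 or A2 replicate 2.

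Among called genes of at least 5 CPM in the higher line whose libraries did not overlap, pseudogenes and predicted models aside, chromosome 7 held 8 of the 12 largest rises. Chromosome 7 held 8.06% of the autosomal genes tested and 11.4% of those called higher. Its rises were in part local, since Cd37 and Ftl1, among others, lie in the region from 45 to 50 Mb described above. Its genes differed in both directions, with 166 higher and 119 lower of 1279 tested. Saa3, an acute-phase serum amyloid, had 9.47, 10.97 and 10.7 CPM in D3, against 0.0946, 0.111 and 0 CPM in A2, a total of 4 counts over the A2 libraries (7.10 ± 0.45, edgeR adjusted p = 1.36e-10). Htatip2 averaged 13.8 ± 0.60 CPM in D3 and 1.65 ± 0.33 in A2 (3.07 ± 0.16), Acan, the cartilage proteoglycan aggrecan, 5.26 ± 1.0 and 0.753 ± 0.20 CPM (2.78 ± 0.27), and the leukocyte tetraspanin gene Cd37 12.1 ± 2.0 and 2.27 ± 0.31 CPM (2.41 ± 0.24). Cd37 stands in a row with Dkkl1 and the YAP partner Tead2, each higher by at least 2-fold, and Tead2 had 128 ± 0.54 CPM in D3 and 60.0 ± 6.3 in A2. Fcgrt, the neonatal Fc receptor, was higher too (2.10 ± 0.18). Off chromosome 7, the protease inhibitor gene Serpina3m was higher (2.91 ± 0.27).

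Tdrd12, a Tudor protein of the small RNA pathway against transposons, differed with little spread. It had 60.3, 60.2 and 57.9 CPM in D3, against 9.88, 9.62 and 9.57 CPM in A2 (2.62 ± 0.08, edgeR adjusted p = 1.36e-16). The line difference was 1.83 in naive and 0.22 in EPL cells. Its neighbours Slc7a9, an amino acid transporter, and the model Gm18558 were also higher, at under 1 CPM in both lines.

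The 12 largest falls by the same rule were spread over more chromosomes. Mir692-1, a microRNA gene, had no count in the D3 libraries and 322 counts over the A2 libraries, at least 111-fold lower in D3 with 3 counts over the group as the floor. Whether its counts include reads of overlapping or similar sequences, such as gene copies, was not tested. Chrna4, a nicotinic acetylcholine receptor subunit, had 0.355, 0.604 and 0.821 CPM in D3, against 7.19, 7.24 and 7.07 CPM in A2 (-3.59 ± 0.29, edgeR adjusted p = 6.56e-09). Zfp536, a zinc finger repressor, averaged 0.520 ± 0.056 CPM in D3 and 6.28 ± 0.37 in A2 (-3.58 ± 0.31). Fgf17, an FGF ligand in the chromosome 14 stretch, had 2.79, 2.74 and 3.28 CPM in D3, against 14.8, 15.7 and 16.1 CPM in A2 (-2.41 ± 0.12), more than the -0.96 of its stretch. Fam189a1 (-2.90 ± 0.30), the lysophosphatidic acid acyltransferase gene Agpat4 (-2.58 ± 0.15), ataxin Atxn1 (-2.57 ± 0.30), the magnesium transporter gene Nipa1 (-2.49 ± 0.16), Fam169b (-2.30 ± 0.15), the annexin gene Anxa3 (-2.19 ± 0.26), Igsf21 (-2.18 ± 0.32) and Tmem117 (-2.10 ± 0.19) complete the 12. The longest row of neighbours lower by at least 2-fold, 9 genes from 9930012K11Rik to Bmp1, lies in the chromosome 14 stretch, as does the next, 5 genes from Hr to Fgf17.

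**Figure D4:**
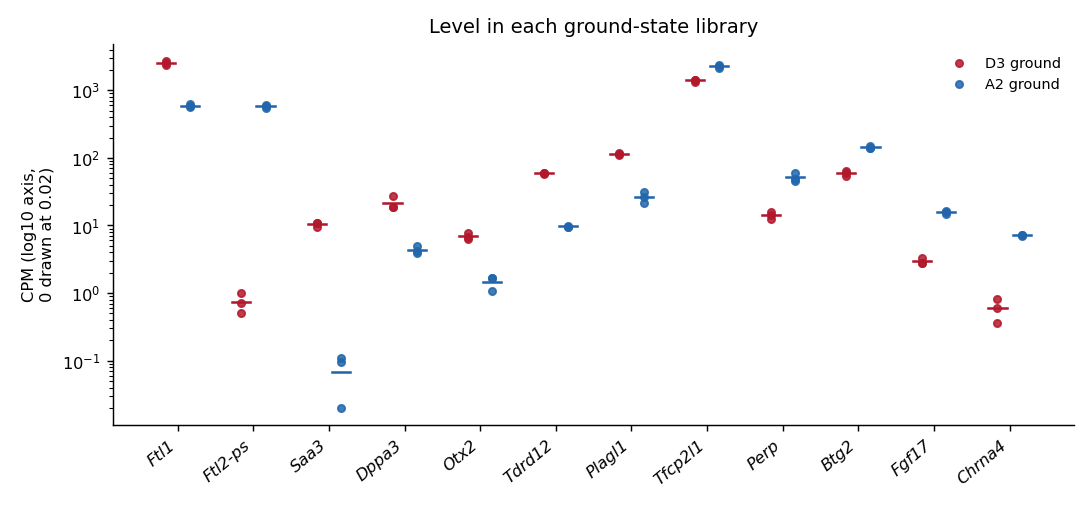
Level in CPM (y axis, log10) of 12 genes in each ground-state library, D3 left of A2, with a bar at the mean of each line and a value of 0 drawn at 0.02. The D3 and A2 libraries do not overlap for any of the 12, as for 40.8% of all autosomal genes tested. Those named as largest rises or falls were picked for not overlapping. Ftl1 and Ftl2-ps differ in opposite directions.

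Ferritin light chain and a ribosomal protein gave opposite differences between a gene and its copies. Ftl1, which stores iron within cells (chromosome 7, 45457944 to 45459884), had 2512, 2348 and 2681 CPM in D3, against 572, 591 and 618 CPM in A2 (2.08 ± 0.13, edgeR adjusted p = 1e-10). Its processed pseudogene Ftl2-ps (chromosome 4, 125504288 to 125504839) had 1.01, 0.511 and 0.712 CPM in D3, against 555, 587 and 610 CPM in A2 (-9.61 ± 0.23, edgeR adjusted p = 6.47e-18). Ftl1-ps2 (-9.50 ± 0.33), Gm12164 (-5.59 ± 0.34) and Gm15590 (-3.64 ± 0.19) were lower in D3 as well, and Ftl1-ps1 was not called (0.34). The 552 coding bases of Ftl1 differ from Ftl2-ps at 7 positions, an identity of 98.73%.

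Summed over Ftl1 and these 5 copies, the libraries had 2537, 2372 and 2710 CPM in D3, against 1219, 1292 and 1338 CPM in A2, a ratio of 1.98 (exact permutation p = 0.1, the smallest possible). The copies alone summed to 26.0 ± 2.8 CPM in D3 and 689 ± 38 in A2. In naive cells the differences were 2.47 for Ftl1 and -9.996 for Ftl2-ps, and in EPL cells 2.21 and -9.51.

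For Rps15a, a protein of the small ribosomal subunit, the gene and its copies moved the other way round. Rps15a had 716, 676 and 742 CPM in D3, against 934, 886 and 992 CPM in A2 (-0.40 ± 0.11, edgeR adjusted p = 0.0104), a call lost without D3 replicate 2 or A2 replicate 3, with an adjusted p up to 0.0571. Its processed pseudogenes Rps15a-ps3, -ps5, -ps6, -ps7 and -ps8 were all higher in D3, and together had 95.5, 84.8 and 100.1 CPM in D3, against 5.39, 5.08 and 5.65 CPM in A2. Rps15a-ps7 had 46.6, 42.0 and 46.7 CPM in D3, against 2.74, 1.99 and 2.07 CPM in A2 (4.30 ± 0.24). Summed with the gene, the family had 805 ± 41 CPM in D3 and 943 ± 53 in A2, a ratio of 0.854. The first 90 coding bases of the gene and of Rps15a-ps7, in GENCODE M21 on GRCm38, are shown because a read of them can tell the copies apart only at the capitals, which mark the 2 positions that differ.
Rps15a: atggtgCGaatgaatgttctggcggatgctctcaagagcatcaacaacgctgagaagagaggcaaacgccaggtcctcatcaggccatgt
Rps15a-ps7: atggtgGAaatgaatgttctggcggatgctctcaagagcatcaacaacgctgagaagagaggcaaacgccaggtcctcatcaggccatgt

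Other copies differed too. Gm11478, whose closest protein-coding transcript is Rpl13a at 98.0% identity, averaged 4.06 ± 0.92 CPM in D3 and 148 ± 5.8 in A2 (-5.19 ± 0.15), while Rpl13a was not called (-0.18). Tpt1-ps3, identical to Tpt1 over 519 aligned bases, differed by -1.20 ± 0.11 beside -1.16 in Tpt1. Because reads of near-identical copies cannot be assigned with certainty, and the authors' setting for such reads is not stated in the labels, the values of each copy are uncertain. Whether sequence differences between the lines take part was not tested.

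A line difference in the ground state may or may not hold in the other stages, and the interaction test asked whether it departed from the mean of the naive and EPL differences. It was called for 1102 autosomal genes (6.95%), 518 with a higher value in the ground state (3.26%) and 584 with a lower one (3.68%), and for 631 of the 3212 genes called in the ground state. Of these 631, 148 had naive and EPL differences both of the opposite sign. Of the 3212, 2219 had the same sign in all 3 stages, and 1222 were also called with that sign in both naive and EPL cells.

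Dppa3 (interaction 1.84 ± 0.22, edgeR adjusted p = 9.72e-06), Otx2 (1.73 ± 0.19, adjusted p = 3.79e-06), Cd37 and Tdrd12 (1.59 ± 0.09, adjusted p = 5.58e-10) were further apart in the ground state. So were Agpat4 (-2.26, adjusted p = 1.28e-08), Nipa1 (-2.49, adjusted p = 4.4e-08), the follistatin-related gene Fstl1 (-1.29, adjusted p = 4.4e-08), Trp53i11 (-1.27, adjusted p = 1.28e-08) and Perp (-1.40, adjusted p = 5.18e-05). Oas1a was higher in D3 in the ground state and had differences of -0.28 in naive and -2.29 in EPL cells. The creatine kinase gene Ckb had 1502, 1463 and 1596 CPM in D3, against 1150, 1050 and 1148 CPM in A2, a difference of 0.45 ± 0.07, and -0.25 and -1.04 in naive and EPL cells. Ftl1, Plagl1, Zfp536 and Rb1 were not called in the interaction (adjusted p = 0.382, 0.816, 0.104 and 0.275).

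**Figure D5:**
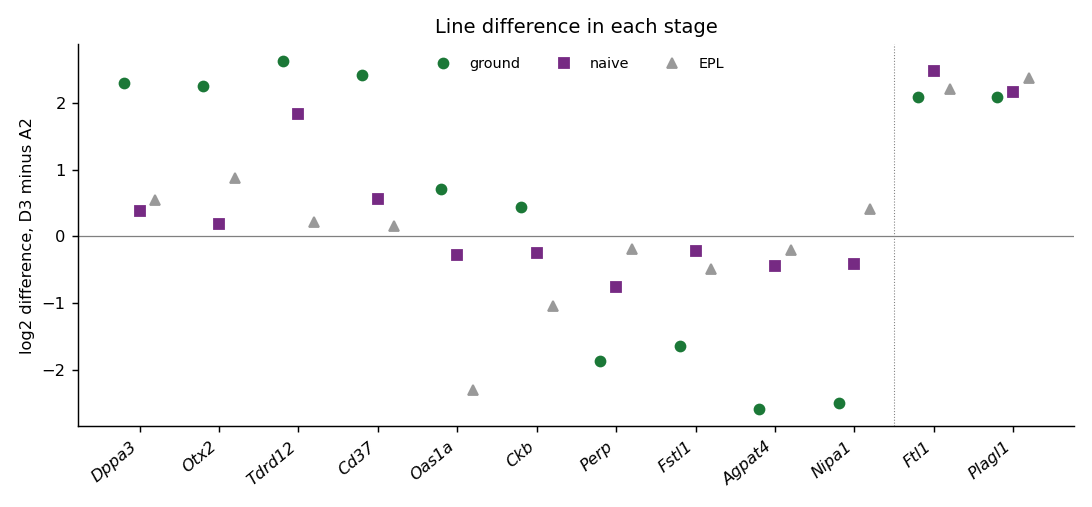
Log2 difference of D3 over A2 (y axis) in ground, naive and EPL cells for 12 genes (x axis). The first 10 genes were called in the interaction, and the last 2, Ftl1 and Plagl1, had a difference of at least 2.08 in every stage.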

How the data were processed

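Bulk RNA was sequenced from mouse embryonic stem cells of the lines D3 and A2. The authors deposited 1 table of whole-number counts per gene for 21 libraries, 3 in each of 7 groups of line and stage. Alignment with HISAT2, SAMtools and counting with featureCounts on GRCm38 are named in the submitters' processing notes, without version, annotation or strand setting, which the sources used here do not give. Per the labels' protocols the libraries were made with a TruSeq RNA v2 kit, which does not mark strand, so overlapping and antisense genes cannot be told apart. Library depth is given with the results.

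From the counts as deposited, edgeR 4.0.16 (R 4.3.3) computed TMM-scaled CPM, kept genes by filterByExpr (count minimum 10, total minimum 15) and fitted 1 mean per group over all 21 libraries, which share the estimate of the spread. The quasi-likelihood test of D3 minus A2 in the ground state was adjusted by Benjamini-Hochberg over 16575 genes, with a call at 0.05. The interaction tested the ground-state line difference against the mean of the naive and EPL ones. A self-test on simulated counts for this comparison, over 15731 genes, recovered 90% of genes changed by 1 log2 unit and 100% of those changed by 2, with 14 false calls. It changed 100 genes of each size, all above a mean of 1 CPM. The spread followed the trend with level, without stage differences or shifts of whole chromosomes. These figures may therefore not hold for the real data. Gene positions and types came from GENCODE M21 on GRCm38, which matched all 39396 IDs, and copies were aligned with BLAST+ 2.17.0.

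Named genes were the 12 largest rises and 12 largest falls among called genes of at least 5 CPM in the higher line and no overlap between lines (pseudogenes and predicted models left out), the leading called members of 35 gene lists, the leading interaction genes and the longest rows of neighbours. Other genes named were chosen after their values were seen, and a few results that meet the rule are not reported here. The members and lists were chosen with earlier results of these data known. Alternatives were RLE and total-count scaling, no and stricter filters on low counts, DESeq2 1.42.0, the 6 ground-state libraries alone, a replicate block and leaving out each library. Replicate numbers did not pair the lines: same-numbered libraries had correlations of their deviations of -0.008, 0.036 and 0.052. Counting intervals were not used, since no single-library share is compared.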

Additional observations from a re-analysis of the deposited data

Results flagged for a closer look

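Of 155 genes named in the text and tested for the interaction, 50 were called by edgeR, against 6.95% of all autosomal genes. Some were named as leading interaction genes or largest differences, so nothing is read from their share. A call means that the line difference in the ground state departed from the mean of the naive and EPL differences. Values are that departure on the log2 scale, positive where D3 was further above A2, or less far below it, in the ground state.

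Among the large rises and their neighbours, the departure was 5.19 for Saa3, 3.12 for Slc7a9, 2.54 for Gm18558, 2.06 for Cd37, 1.84 for Dppa3, 1.80 for Fcgrt, 1.73 for Otx2, 1.59 for Tdrd12, 0.73 for Htatip2 and 0.60 for Tead2. Slc7a9 and Gm18558 each had 4 counts over the A2 ground-state libraries. Among the large falls it was -3.61 for Chrna4, -2.49 for Nipa1, -2.26 for Agpat4, -1.69 for Tmem117, -1.56 for Igsf21, -1.50 for Anxa3, -1.19 for Fgf17 and -1.03 for Fam169b.

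Among factors of pluripotency and the formative state, it was 0.56 for Tfcp2l1, 0.46 for Nanog, 0.36 for Lin28a, 0.31 for Tbx3, 0.47 for Dnmt3l, 0.53 for Uhrf1 and -0.44 for Etv4. Nanog and Tbx3 were not called in the ground state itself. Among signalling and p53 genes it was -1.40 for Perp, -1.16 for Jun, -0.43 for Btg2, -0.35 for Bbc3, -0.31 for Dusp6 and 0.33 for Spry2.

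Among imprinted and germline genes it was 1.32 for Sfmbt2, -1.43 for Sgce, -0.87 for Peg10, -0.44 for Ndn, -0.41 for Rian and 0.63 for Tex19.1. Among markers of other cell types it was 1.44 for Tfap2a, 0.87 for Hnf4a, 0.63 for Tubb3, -1.13 for Fst and -1.02 for Lamb1. For the remaining genes it was 2.00 for Oas1a, 1.09 for Ckb, 0.40 for Gldc, -1.29 for Fstl1, -1.27 for Trp53i11, -1.25 for Gsto1, -1.05 for Nefm and -0.72 for 9930012K11Rik.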

How the results depend on the processing

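Scaling by RLE or total count, DESeq2, no filter or a stricter filter on low counts, and a fit of autosomal genes alone left the number of autosomal genes called within 1.5 times of 3212, and no gene named in the text and called reversed its direction in these fits, in the 6 ground-state libraries, with the replicate block or with 1 library left out. Some named genes that were not called changed sign when 1 library was left out. With the 6 ground-state libraries alone, 2213 genes were called higher and 3297 outside chromosomes 1, 8 and 14. With a replicate block, 3121 genes were called over all 21 libraries, and 4936 over the 6 ground-state libraries, 2426 of them higher and 3642 outside chromosomes 1, 8 and 14. The cause of the higher counts in the 6 libraries was not tested. The interaction needs the other stages and has no value there. Leaving out 1 library gave 2457 to 2668 called genes and 735 to 817 in the interaction, each below the count with all libraries. The stricter filter left 6 rows of at least 3 neighbours in place of 10.

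Without the filter, genes of very low count entered and the medians became -0.26 for chromosome 1, 0.26 for chromosome 8, 0 for chromosome 14, and -0.014 to 0 for the lowest and highest of the other 16 autosomes. Over well-expressed protein-coding genes chosen after seeing the data, they were 0.32 for chromosome 8 and -0.032 for chromosome 14. Leaving out 1 library gave -0.41 to -0.38 for chromosome 1, 0.31 to 0.32 for chromosome 8 and -0.96 to -0.93 for the chromosome 14 stretch. Of 124 genes named in the text and called, 117 to 119 stayed called with 1 library left out, and 123 with the replicate block over all 21 libraries. Depth limits genes of few counts, such as Fgf5 and Gsto2.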
